A study of Homo sapiens with 12 samples.

Results

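The cytosolic ribosomal protein genes were followed across HEK293 cells that expressed forms of the domesticated retrotransposon *PEG10*. Members were taken by symbol, as every row named RPL or RPS with a number and at most a paralog or copy letter, the 3 P stalk genes *RPLP0*, *RPLP1* and *RPLP2*, and *RPSA*. This gave 84 of 26485 genes in the count table, 52 of the large and 32 of the small subunit. The rule left out ribosomal protein S6 kinases, mitochondrial ribosomal proteins and pseudogenes, and also ribosomal protein genes with other kinds of names.

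Ribosomal proteins pack around ribosomal RNA to form the large subunit, which joins amino acids, and the small subunit, which reads the mRNA. Their mRNAs are among the most abundant in dividing cells. Most begin with a run of pyrimidines that starts with a C at the cap, the 5′ terminal oligopyrimidine (5′TOP) motif, through which mTOR signaling and the cap-binding repressor *LARP1* control their translation and stability together. A few genes have a second copy, a paralog, that is expressed in a narrower range of cells and can replace its partner in the ribosome.

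Poly(A) RNA was measured in HEK293, a line from human embryonic kidney, with a wild-type genotype. Cells were transfected with CMV-driven plasmids for PEG10 gag-pol, PEG10 gag, the PEG10 nucleocapsid fragment (NC) or, as control, HA-tagged LifeAct-Dendra2, an actin-binding fluorescent marker. Each of the 4 groups held 3 libraries, from 3 passages of 1 line that the submitters describe as independent. Gene tests were blocked by replicate number, so their p-values measure the spread left after differences shared by a replicate number are removed. NC forms the end of gag, so gag-pol and gag also contain it, and gag-pol alone contains the retroviral protease. Totals ran from 30625725 to 45316749 counts per library. Counts of *PEG10* itself, at 7817 to 14243 in control, were higher in every group given a *PEG10* construct, as labeled. They were 98420 to 132613 with NC, 1267100 to 2815830 with gag-pol and 1437940 to 2370310 with gag. The ranges of gag-pol and gag overlap, and counts per gene do not tell gag-pol from gag. The HEK293 markers *PAX2*, *LHX1*, *NEFM*, *NEFL*, *VIM*, *KRT8* and *KRT18* were counted in every library, at no fewer than 41 counts each, and the 8 markers of blood, liver, endothelium, squamous epithelium and mature kidney had at most 50 counts.

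Of the 84 members, 67 had a start in the RefSeq promoter table for GRCh38.p14. A C at the start followed by at least 4 more C or T stood at a listed start of 47 of these, 70.1%. Of all 27305 genes with a listed start, 1404 had it, 5.14%, and of 68 mitochondrial ribosomal protein genes 6 had it. The 30 bases around the start are printed for the genes on which most results turn and for partners of paralogs, from 15 before it to 15 after it, on the strand of the gene and with the pyrimidine run in capitals where it met this definition.

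RPS25 (chr11:119018329-119018358, minus strand): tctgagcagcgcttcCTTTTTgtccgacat
RPL39 (chrX:119791616-119791645, minus strand): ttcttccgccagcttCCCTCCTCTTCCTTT
RPS3 (chr11:75399503-75399532, plus strand): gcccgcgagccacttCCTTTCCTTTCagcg
RPL12 (chr9:127451392-127451421, minus strand): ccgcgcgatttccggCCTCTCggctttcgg
RPL22 (chr1:6199581-6199610, minus strand): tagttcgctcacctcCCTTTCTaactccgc
RPL22L1 (chr3:170870181-170870210, minus strand): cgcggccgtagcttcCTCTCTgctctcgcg
RPL26 (chr17:8383179-8383208, minus strand): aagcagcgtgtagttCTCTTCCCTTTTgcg
RPL26L1 (chr5:172958714-172958743, plus strand): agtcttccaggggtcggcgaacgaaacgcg
RPS27 (chr1:153990747-153990776, plus strand): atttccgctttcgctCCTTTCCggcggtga
RPS27L (chr15:63157463-63157492, minus strand): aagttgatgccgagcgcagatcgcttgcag
RPS4X (chrX:72277234-72277263, minus strand): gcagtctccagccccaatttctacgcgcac
RPL3 (chr22:39319609-39319638, minus strand): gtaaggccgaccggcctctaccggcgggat

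The run of *RPL39*, 19 bases, went past the window. The paralogs *RPL26L1*, *RPS27L*, *RPL7L1* and *RPL10L* had no such run at any listed start, whereas *RPL22L1* had one of 6 bases, next to 7 in its partner *RPL22*. The core genes *RPS4X* and *RPL3* also did not meet the definition at their listed start, *RPL3* because its run was shorter. The definition was met by *RPL26*, *RPS27* and *RPL10*, partners of 3 paralogs without it. *RPL3L*, *RPL39L* and *RPL7* were among 17 members with no listed start.

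Per length, levels within the family ran over several orders of magnitude in control, and the lowest were the paralogs and a set of genes that share exons with a read-through gene. Levels here are TPM, counts per length scaled to a fixed sum in each library, calculated with the length of the GENCODE release 44 canonical transcript. *RPS2*, at the mRNA entry channel, was highest, at 11917 ± 393 TPM (SD, n = 3). *RPS15* had 7377 ± 592 TPM, *RPS16* 6178.5 ± 413 TPM and *RPS18* 5689 ± 375 TPM, and *RPS16* and *RPS18* differed by little more than their SD. The median of the 84 members was 1717 TPM, and 74 members were above 100 TPM.

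The other 10 members fell into 2 kinds. All 7 paralogs were among them. *RPL26L1* had 83.5 ± 23.0 TPM, *RPL7L1* 71.7 ± 6.68 TPM, *RPL39L* 59.9 ± 11.4 TPM and *RPL22L1* 10.3 ± 1.39 TPM. *RPS27L*, a p53 target, had 5.29 ± 0.679 TPM and *RPL3L*, the copy of *RPL3* used in heart and skeletal muscle, 0.855 ± 0.324 TPM. *RPL10L*, the testis copy of *RPL10*, had a count of 0 in all control libraries and at most 8 counts in the others, and was the only member that did not pass the filter on low counts, so 83 members were tested.

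The remaining 3 were *RPL17* at 75.4 ± 6.46 TPM, *RPL36A* at 45.5 ± 11.8 TPM and *RPS10* at 24.9 ± 2.00 TPM, all core components of the ribosome. In GENCODE, 96.9% of the exon bases of *RPL17* are shared with the read-through gene *RPL17-C18orf32* on the same strand, 84.01% of those of *RPS10* with *RPS10-NUDT3* and 43.8% of those of *RPL36A* with *RPL36A-HNRNPH2*. These 3 read-through genes summed to 0 counts over all 12 libraries. How reads in shared exons were assigned is not given in the sources used here, so the counts of these 3 members are uncertain. Likewise *RPL38*, *RPL10*, *RPS28* and *RPS3A* overlap a gene on the opposite strand over 59.0%, 50.7%, 27.4% and 24.05% of their exon bases, and the strand setting is not given.

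Order by level also depended on the length used. Per kilobase of coding sequence, *RPL41*, the shortest member with 75 coding bases, came first at 5039 ± 367 CPM per kilobase, before *RPS2* at 4947 ± 188. *RPLP1* rose from rank 21 to rank 3, since its canonical transcript of 1174 bases holds 342 coding bases. The canonical transcript exceeded 2000 bases for 20 members. The 10 members under 100 TPM took the last 10 ranks per coding length as well.

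**Figure D1:**
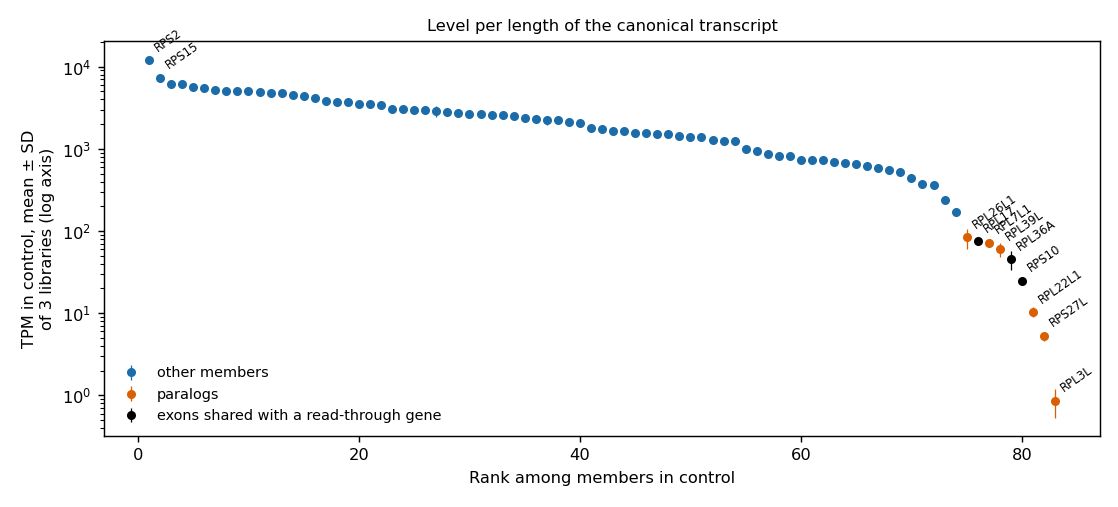
Level of the ribosomal protein genes in control, in TPM per length of the canonical transcript on a log axis, as mean and SD of 3 libraries against the rank of the gene. RPL10L, at 0, is not drawn; the lowest 9 points are 6 paralogs in orange and the 3 members that share exons with a read-through gene in black.

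The share of all members in the counts of a library was highest in the NC group. With NC it was 7.27, 8.68 and 7.44% in replicates 1, 2 and 3, and in control 6.63, 7.21 and 6.496%, so that all 3 NC libraries lay above all 3 control libraries. The mean difference was 1.02 percentage points (exact two-sided permutation test, p = 0.1), and 3 libraries against 3 cannot give a smaller p. It was 0.581 points without replicate 2 of NC. Per length, as a share of TPM, it was 2.15 points (exact permutation p = 0.2), and there replicate 1 of NC lay below replicate 2 of control. With gag-pol the shares were 6.33, 7.02 and 7.69%, 0.236 points above control (exact permutation p = 0.7), and without replicate 3 of gag-pol the difference was -0.101. With gag they were 5.75, 6.47 and 6.93%, and the difference was -0.391 points (exact permutation p = 0.4). It ranged from -0.665 points without replicate 3 of gag to -0.0738 without replicate 1 of gag, and was -1.0003 per length. *PEG10* alone took between 2.80 and 7.35% of counts in the gag-pol libraries and between 3.78 and 6.10% in those of gag. With *PEG10* left out of the total, the differences were 0.559 points for gag-pol and -0.0377 for gag. In bulk RNA, a change in RNA per cell cannot be told apart from a change in which cells were transfected or survived.

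**Figure D2:**
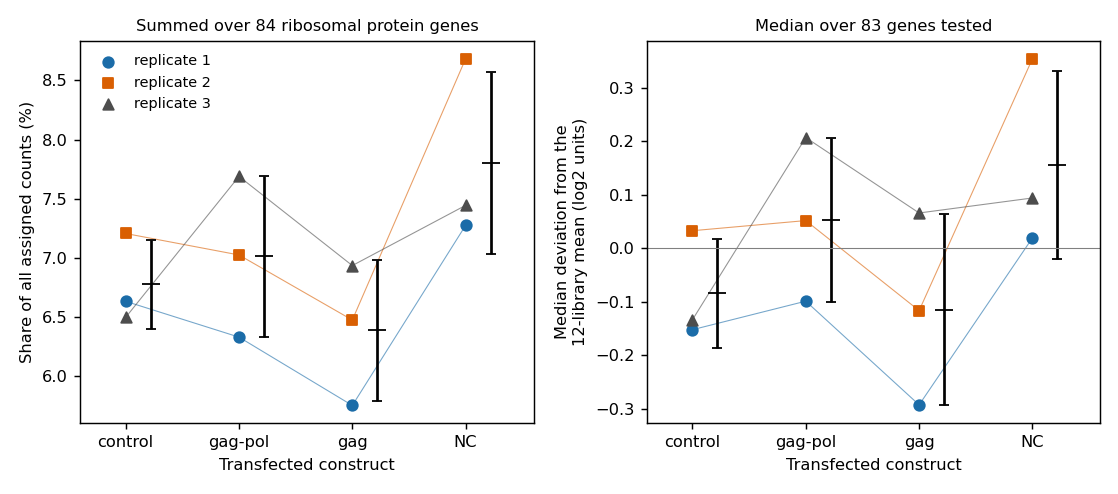
Summed share of the 84 ribosomal protein genes in all counts (left, in percent; the axis does not start at 0) and median deviation of the 83 tested members from their mean over 12 libraries (right, log2 units), by construct. Symbols and thin lines join libraries of 1 replicate number, and bars give mean and SD of 3 libraries; the NC library of replicate 2 is highest and the gag library of replicate 1 lowest in both.

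Both subunits moved together. The ratio of large to small subunit counts stayed between 1.52 and 1.598 in the 12 libraries. In a principal component analysis of 82 members, with *RPL3L* left out for its low counts, the leading component explained 77.2% of their variance over the libraries. Of these members, 63 had a correlation above 0.9 with the median of the family, a description over 12 libraries that share constructs and replicate numbers, in which the median is itself made from the members. The 8 members below 0.5 were the paralogs *RPL7L1*, *RPL22L1*, *RPL26L1*, *RPL39L* and *RPS27L* and the 3 members with read-through overlap, *RPL17*, *RPS10* and *RPL36A*.

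With NC, estimates were above control for 79 of 83 members, by small amounts. Against control, 25 of 83 members rose and 0 fell in edgeR's quasi-likelihood test at an adjusted p under 0.05. Of all 17176 genes tested, 11.2% were called, 6.04% higher and 5.15% lower. Before adjustment, 65 members and 4650 of all 17176 genes had a p under 0.05. The members' median log2 fold change was 0.24, from 15 called of 51 in the large and 10 of 32 in the small subunit, next to 0.00 over all genes tested. It was 0.17, 0.32 and 0.22 within replicates 1, 2 and 3. For 77 members the NC library was above the control library in all 3 replicates, an order that 24.8% of all genes showed, and for 24 members all 3 NC libraries were above all 3 control libraries, as for 4.56% of all genes.

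The largest rise with NC among called members was that of *RPS27L*. Its normalised counts, scaled to the mean library total, were 702, 827 and 466 in replicates 1, 2 and 3 of NC and 512, 451 and 397 in control. NC was higher within each replicate, but its replicate 3 lay inside the control range. The log2 fold change was 0.54 ± 0.13 (SE; adjusted p = 0.0124). *RPL39L*, the copy of *RPL39* at the peptide exit tunnel, had 850, 913 and 627 with NC and 679, 688 and 473 in control, again higher within each replicate, with an overlap of the groups. Its log2 fold change was 0.38 ± 0.11 (adjusted p = 0.0319). Without replicate 2 of NC neither *RPS27L* nor *RPL39L* was called (adjusted p = 0.0926 and 0.112), nor without replicate 2 of control (0.0765 and 0.07), and any other NC or control library left out also ended the call of *RPL39L* (0.0573 to 0.161).

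The rises of core genes were smaller and more alike. *RPS25*, a small subunit protein used by viral internal ribosome entry sites, had 12507, 17646 and 14064 normalised counts with NC against 10716, 13047 and 10147 in control. Its log2 fold change was 0.37 ± 0.09 (adjusted p = 0.0131), although replicate 1 of NC lay below replicate 2 of control. *RPL12*, at the base of the P stalk, had 27850, 33958 and 26220 with NC against 22567, 24879 and 21238, which did not overlap (log2 fold change 0.35 ± 0.09, adjusted p = 0.0118). *RPL3*, which reaches toward the peptidyl transferase center, had 60597, 82348 and 65432 against 51118, 62346 and 49407, with replicate 1 of NC inside the control range (log2 fold change 0.35 ± 0.09, adjusted p = 0.0168). Among partners of paralogs, *RPL22*, *RPL39* and *RPL7* also rose with NC, *RPL22* by 0.30 (adjusted p = 0.0371) and *RPL39* by 0.34 (adjusted p = 0.0236). Each of these calls of core genes was lost without replicate 3 of control, *RPS25* at an adjusted p of 0.115, *RPL12* at 0.0797, *RPL3* at 0.119, *RPL22* at 0.27, *RPL39* at 0.171 and *RPL7* at 0.2, and each without replicate 2 of NC (0.0576 for *RPL12* to 0.157 for *RPL22*).

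The P stalk proteins *RPLP0*, *RPLP1* and *RPLP2*, which recruit elongation factors, were not called with NC against control, with log2 fold changes of 0.24, 0.18 and 0.21 and adjusted p of 0.093, 0.234 and 0.108. *RPL5* and *RPL11*, which with 5S ribosomal RNA bind the p53 ligase MDM2, had 0.21 and 0.26 (adjusted p = 0.137 and 0.0537). *RPS6*, the substrate of S6 kinase, had 0.18 (adjusted p = 0.238), *RPSA*, also known as the laminin receptor, 0.23 (adjusted p = 0.0983), and *RPS27A*, made as a fusion with ubiquitin, 0.20 (adjusted p = 0.115). The number of calls with NC moved with single libraries. It was 0 without replicate 2 of NC and 2 without its replicate 1, where 8.49 and 5.5% of all genes were called. It was 1 without replicate 3 of control and 5 without its replicate 2, where 2.1 and 6.71% were. Without replicate 1 of either gag or gag-pol, libraries that enter through the shared estimate of spread, it was 12, where 9.06 and 9.76% were. Leaving out replicates 1, 2 and 3 as a whole gave 0, 0 and 43, where 2.88, 5.82 and 4.71% of all genes were called. The median stayed positive in these cases, at 0.15 to 0.31.

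**Figure D3:**
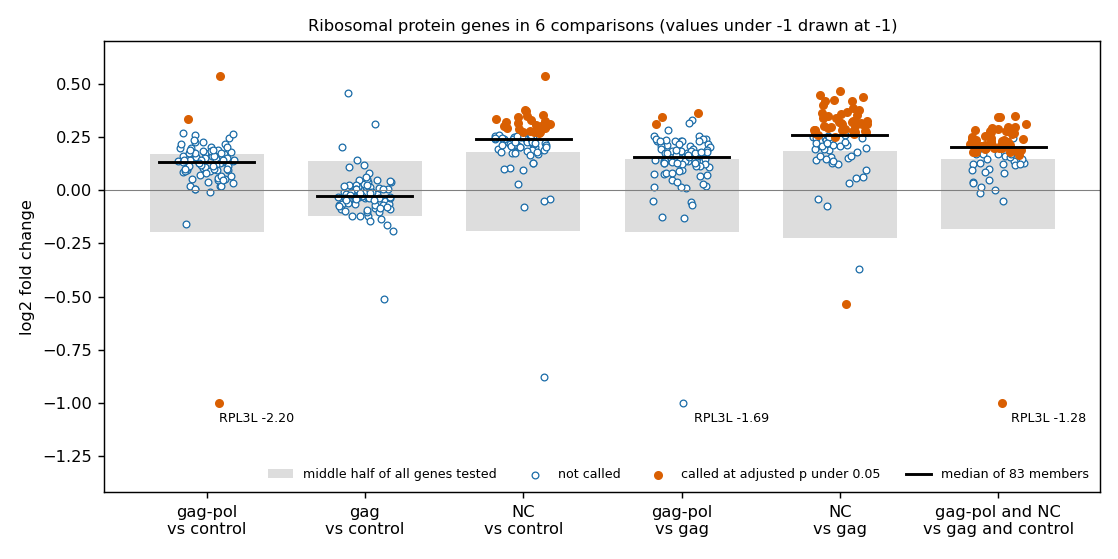
Log2 fold change of the 83 tested ribosomal protein genes in 6 comparisons, with filled points called at an adjusted p under 0.05 and horizontal bars at the members' median. Grey boxes span the interquartile range of all genes tested; RPL3L, below -1 in 3 comparisons, is drawn at -1 with its value. The medians lie at 0.13 for gag-pol, -0.03 for gag and 0.24 for NC against control.

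With gag-pol, 3 members were called against control, 2 higher and 1 lower, where 11.3% of all genes were called, 5.48% higher and 5.83% lower. Unadjusted, 16 members and 4696 of all 17176 genes had a p under 0.05. The median was 0.13, next to 0.00 over all genes, and 80 of 83 members had a positive estimate. Within replicates 1, 2 and 3 the median was 0.04, 0.01 and 0.32, so most of it came from replicate 3. *RPS25* rose, from 10716, 13047 and 10147 normalised counts in control to 12050, 14663 and 16218, with an overlap of the groups (log2 fold change 0.34 ± 0.09, adjusted p = 0.0203). *RPL22L1* rose from 231, 308 and 288 to 471, 358 and 377, so that all 3 libraries with gag-pol were above all 3 controls, as for *RPS12* and for 6.74% of all genes (log2 fold change 0.54 ± 0.17, adjusted p = 0.0394). *RPL3L* fell, from raw counts of 17, 42 and 21 to 10, 2 and 7 without overlap, as 6.75% of all genes did, and its log2 fold change of -2.20 ± 0.65 (adjusted p = 0.0296) rests on these low counts.

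None of these 3 calls held when every library was left out in turn. *RPS25* was not called without replicate 3 of control (adjusted p = 0.167) or replicate 1 or 3 of gag-pol (0.058 and 0.161). *RPL22L1* was not called without replicate 1 or 3 of control (adjusted p = 0.198 and 0.128), replicate 1 or 2 of gag-pol (0.248 and 0.059) or replicate 1 of gag or NC (0.052 and 0.05). *RPL3L* was not called without replicate 2 or 3 of control (adjusted p = 0.196 and 0.078), any 1 library with gag-pol (0.061, 0.143 and 0.104) or replicate 1 of gag (0.052). The number of members called was 0 without replicate 3 of control or replicate 1 of gag-pol, where 4.22 and 5.13% of all genes were called. It was 5 without replicate 2 of NC, where 13.9% were. It was 1 without replicate 2 or 3 of gag-pol or replicate 1 of gag, where 9.31, 4.97 and 9.48% were. Without all of replicate 1 or 3 it was 0, where 2.44 and 4.47% of all genes were called.

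With gag, 0 of 83 members were called against control in edgeR, and 0 in DESeq2. Of all genes, 1.08% were called in edgeR and 1.91% in DESeq2. Unadjusted, 2 members and 2347 of all 17176 genes had a p under 0.05. The median was -0.03, with 28 positive and 55 negative estimates. It was -0.14, -0.15 and 0.22 within replicates 1, 2 and 3, so replicate 3 differed in sign. Without replicate 3, 8 members were called, all lower, where 4.26% of all genes were called. *RPL22L1* had the highest estimate, 0.46 ± 0.17, with 393, 300 and 458 normalised counts against 231, 308 and 288 in control (adjusted p = 0.207). The 3 comparisons with control share the control libraries, so their values are not independent of each other.

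NC and gag were therefore also compared directly. In this comparison 43 members were higher and 1 was lower with NC than with gag, where 16.9% of all genes were called, 8.76% higher and 8.12% lower. For 16 members all 3 NC libraries were above all 3 gag libraries, as for 7.09% of all genes. The median was 0.26, next to -0.01 over all genes. *RPL39L* had the largest rise, with 850, 913 and 627 normalised counts with NC and 636, 616 and 470 with gag, which overlapped in part (log2 fold change 0.47 ± 0.11, adjusted p = 0.00723). *RPS29*, a zinc-binding small subunit protein, had 5648, 7671 and 5892 against 4003, 4558 and 5504, which did not overlap (0.45 ± 0.10, adjusted p = 0.0055). *RPL39* had 12581, 19146 and 15194 against 9065, 12056 and 13467, where replicate 1 of NC lay below replicate 3 of gag (0.44 ± 0.09, adjusted p = 0.00364). *RPS4X*, the X-linked copy of eS4, had 69178, 92462 and 67546 against 50831, 59745 and 58732, which did not overlap (0.42 ± 0.09, adjusted p = 0.00482). *RPS3A* rose by 0.42 ± 0.10 (adjusted p = 0.0062), from 34483, 41072 and 45824 to 46383, 64747 and 51704, without overlap.

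*RPL22L1* went the other way from its partner in this comparison. It had 250, 256 and 282 normalised counts with NC and 393, 300 and 458 with gag, so that every NC library was below every gag library, as for 7.31% of all genes (log2 fold change -0.54 ± 0.17, adjusted p = 0.0314). *RPL22* had 18719, 25927 and 21679 with NC and 14006, 17047 and 18441 with gag (0.42 ± 0.09, adjusted p = 0.00391), with all NC libraries above all gag libraries. *RPL22L1* thus amounted to 1.34, 0.987 and 1.30% of *RPL22* with NC, 2.81, 1.76 and 2.48% with gag, 2.71, 1.76 and 1.69% with gag-pol and 1.37, 1.499 and 1.77% in control. The fall of *RPL22L1* was not called without replicate 1 or 3 of gag (adjusted p = 0.128 and 0.185) or without replicate 1, 2 or 3 of NC (0.132, 0.052 and 0.08).

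Among the genes followed for their role, *RPL11* (0.28, adjusted p = 0.0262), *RPLP2* (0.28, adjusted p = 0.0278), *RPS6* (0.33, adjusted p = 0.0247) and *RPSA* (0.32, adjusted p = 0.0158) were higher with NC than with gag. So were the partners of paralogs *RPL3*, *RPL7*, *RPL10*, *RPL22* and *RPL39*. Without replicate 1 of gag, *RPS29*, *RPS4X* and *RPS3A* were not called (adjusted p = 0.0538, 0.0541 and 0.0591), nor were *RPL11*, *RPLP2*, *RPS6*, *RPSA*, *RPL3*, *RPL7* and *RPL10* (0.0794 to 0.191), whereas *RPL39L*, *RPL39* and *RPL22* were called whichever library was left out. *RPL5* had 0.21 (adjusted p = 0.127) and *RPLP0* 0.25 (adjusted p = 0.0667). The difference between NC and gag was not even across replicate numbers, with a median of 0.31, 0.47 and 0.01 in replicates 1, 2 and 3. The count of 44 members fell to 13 without replicate 1 of NC and 10 without its replicate 2, where 7.71 and 12.4% of all genes were called. It fell to 5 without replicate 1 of gag and 9 without its replicate 2, where 5.36 and 9.45% were. It was 0, 1 and 75 without all of replicates 1, 2 and 3, and the 75 were all higher, where 1.98, 8.83 and 19.9% of all genes were called.

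Gag-pol against gag gave 3 members, all higher, where 6.46% of all genes were called and 3.03% were higher, and a median of 0.16. *RPL39* had 11494, 15287 and 17765 normalised counts with gag-pol and 9065, 12056 and 13467 with gag (0.36 ± 0.09, adjusted p = 0.0229). *RPS4X* had 66520, 77955 and 71168 against 50831, 59745 and 58732 and was the only tested member with all 3 gag-pol libraries above all 3 gag libraries, an order of 6.64% of all genes (0.35 ± 0.09, adjusted p = 0.03). *RPS25* rose by 0.31 ± 0.09 (adjusted p = 0.0435). None of *RPL39*, *RPS4X* and *RPS25* was called without replicate 3 of gag-pol (adjusted p = 0.225, 0.202 and 0.348), replicate 1 of gag (0.14, 0.188 and 0.238) or replicate 2 of gag (0.123, 0.165 and 0.143). Within replicates, 67 members were higher with gag-pol in all 3, an order found in 24.8% of all genes. The median was 0.21, 0.16 and 0.11 in replicates 1, 2 and 3. The count was 0 without replicate 3 of gag-pol and 1 without its replicate 1, where 0.741 and 3.22% of all genes were called. It was 0 without replicate 1 or 2 of gag, where 0.696 and 2.7% were. It was 11 without replicate 3 of control and 6 without its replicate 1, where 10.6 and 6.45% were. It was 7 without replicate 3 of gag or replicate 2 of NC, where 3.03 and 8.57% were. It was 5 without replicate 3 of NC or replicate 2 of gag-pol, where 6.5 and 5.98% were. Without all of replicates 1, 2 and 3 it was 0, 0 and 11, where 0.0693, 4.35 and 3.69% of all genes were called.

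In the comparison of pairs, the mean of gag-pol and NC was set against that of gag and control, since gag-pol carries the protease that can release the nucleocapsid and NC supplies it directly. This placed 6 libraries on each side. Of 83 members, 54 were higher and 1 was lower, where 24.7% of all genes were called, 13.1% higher and 11.6% lower. The median was 0.20, next to -0.01 over all genes, and within replicates 1, 2 and 3 it was 0.18, 0.24 and 0.16. *RPL39* had the largest rise among called members (0.35 ± 0.07, adjusted p = 0.000775), followed by *RPS4X* (0.35 ± 0.07, adjusted p = 0.000883) and *RPS25* (0.34 ± 0.06, adjusted p = 0.000803). *RPS3*, at the mRNA entry channel, rose by 0.31 ± 0.07 (adjusted p = 0.00235) and *RPL39L* by 0.30 ± 0.08 (adjusted p = 0.00902). *RPL3L* alone fell (-1.28 ± 0.44, adjusted p = 0.0344).

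In the comparison of pairs 55 of 83 tested members and 24.7% of all genes were called, and no role was tested against the family. By role, 3 of the 4 stalk genes were called in this comparison, *RPL12*, *RPLP0* and *RPLP2*. Of 9 genes at the peptide exit tunnel and exit site 6 were called, and the estimates of all 9 lay between 0.04 and 0.35. The 3 tested members of this set that were not called included *RPL17*, with the read-through overlap. Of 13 genes mutated in Diamond-Blackfan anemia, a failure of red cell formation, 9 were called. Of the 7 partners of paralogs, 6 were called, all but *RPS27* (0.12, adjusted p = 0.154), whereas of the 6 tested paralogs *RPL39L* and *RPL3L* were. The other paralogs had 0.00 for *RPL22L1* (adjusted p = 0.999), -0.01 for *RPL7L1* (adjusted p = 0.912), 0.05 for *RPL26L1* (adjusted p = 0.732) and 0.24 for *RPS27L* (adjusted p = 0.0571). *RPL17*, *RPL36A* and *RPS10* had 0.04, 0.04 and -0.05. Of the 4 members on the X chromosome, *RPL39*, *RPS4X* and *RPL10* were called and *RPL36A* was not.

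The count of 55 was 34 without replicate 2 of NC and 35 without replicate 3 of control, where 22.8 and 17.2% of all genes were called. It was 26 without replicate 1 of gag and 32 without its replicate 2, where 17.8 and 19.1% were. Without replicate 3 of gag-pol it was 29, where 16.1% were. Without all of replicates 1 and 2 it was 14 and 20, where 13 and 18.7% of all genes were called. The fall of *RPL3L* in this comparison was not called in 9 of the 12 fits that left out 1 library. Without replicate 3 of gag-pol or replicate 1 of gag, *RPLP0* (adjusted p = 0.0997 and 0.0941), *RPLP2* (0.0716 and 0.0822) and *RPL26* (0.0746 and 0.0919) were not called. *RPL39*, *RPS4X*, *RPS25*, *RPS3*, *RPL3*, *RPL7* and *RPL22* stayed called whichever library or whole replicate was omitted.

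Between NC and gag-pol, compared directly, 0 of 83 members were called in edgeR and 0 in DESeq2. Of all genes, 0.0873% were called in edgeR and 0.928% in DESeq2. Unadjusted in edgeR, 5 members and 1704 of all 17176 genes had a p under 0.05. The median was 0.10, with 0.11, 0.31 and -0.10 within replicates 1, 2 and 3. *RPL22L1* had the lowest estimate, -0.61 ± 0.17 (adjusted p = 0.167), and its 3 NC libraries, at 250, 256 and 282 normalised counts, were all below the gag-pol libraries, at 471, 358 and 377, as 4.13% of all genes were. Without replicate 3, 20 members were higher with NC, where 3.11% of all genes were called. Without replicate 3 of gag-pol, 1 was called, where 1.6% of all genes were.

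**Figure D4:**
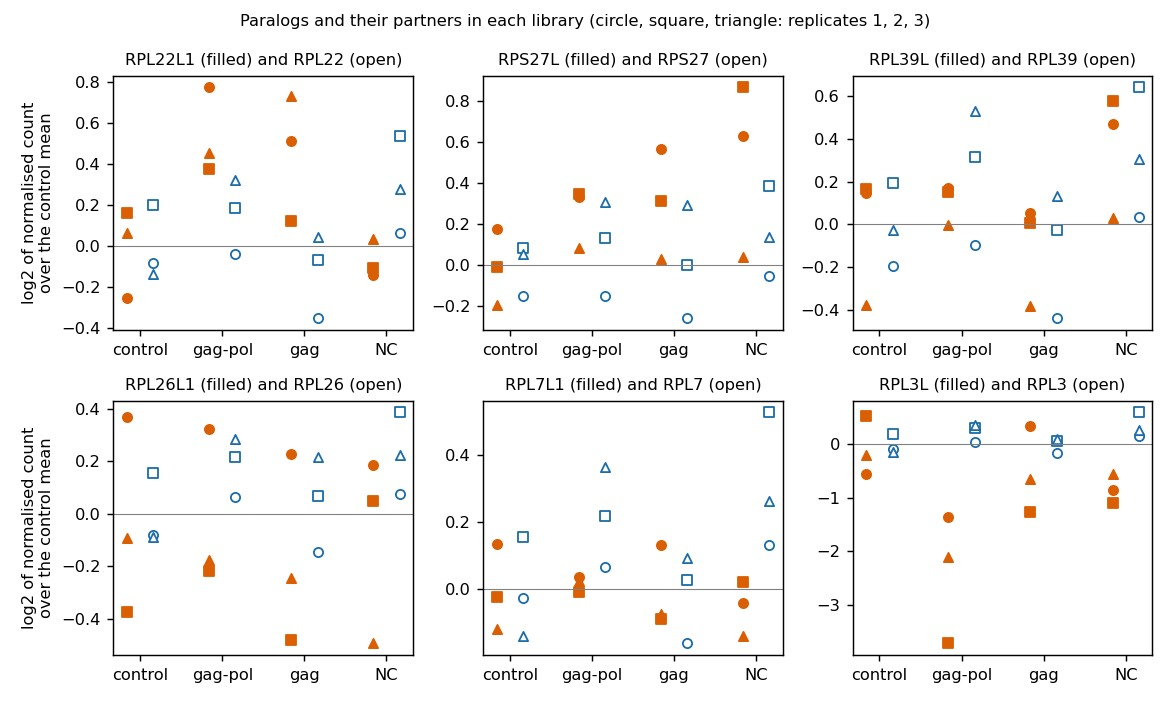
Normalised count of 6 paralogs (filled) and their partners (open) in each library, as log2 of the ratio to the control mean of the same gene, by construct; axes differ between panels. RPL22L1 is below RPL22 in all 3 NC libraries and above it in all 3 gag libraries, and RPL3L, which has 2 to 42 counts per library, is lowest with gag-pol.

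Levels also differed between libraries with different replicate numbers. Between replicate numbers 52 of 83 members differed, where 52.8% of all genes did. Against replicate 1, 46 members were higher and 2 lower in replicate 2, where 30.5% of all genes were called, 15.9% higher and 14.7% lower. In replicate 3, 41 were higher and 5 lower, where 41.6% of all genes were called, 20.6% higher and 21% lower. Between replicates 3 and 2 only 4 members were called, where 27.1% of all genes were. *RPL39* rose most (0.46 ± 0.08 in replicate 2, adjusted p = 0.000248, and 0.42 ± 0.08 in replicate 3, adjusted p = 0.000296). *RPL26L1* went the other way, and fell by 0.52 in both replicates. Its normalised counts were 960 to 1090 in the 4 libraries of replicate 1 and 599 to 872 in the other 8, without overlap.

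*RPL36A* was also lower than in replicate 1, with log2 fold changes of -0.43 in replicate 2 and -0.64 in replicate 3 (adjusted p = 0.0273 and 0.00134). *RPL39L* and *RPS27L* were lower in replicate 3 than in replicate 1, with -0.39 and -0.43 (adjusted p = 0.00291 and 0.00395), and lower than in replicate 2, with -0.41 and -0.39 (adjusted p = 0.00355 and 0.0122). The number of members that differed between replicate numbers was 26 without replicate 1 of NC, 21 without replicate 1 of gag and 28 without replicate 1 of gag-pol. In these fits 46.1, 42.8 and 45.2% of all genes differed. The number of members was 2 when replicate 1 was left out in all groups, where 21.2% of all genes were called.

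Other genes of the translation machinery were counted in the same fit. Of 19 translation factors and related genes with a known 5′TOP, 8 were higher with NC than control, 13 higher than with gag, and 13 higher in the comparison of pairs, with a median of 0.23 in the last. Of all genes, 6.04, 8.76 and 13.1% were higher in these comparisons. *PABPC1*, the poly(A)-binding protein, rose with gag-pol (0.40, adjusted p = 0.0073) and with NC (0.40, adjusted p = 0.00938), and had -0.01 with gag (adjusted p = 0.973). *NAP1L1*, a histone chaperone, and the elongation factor *EEF1A1* rose by 0.37 and 0.34 in the comparison of pairs. Of 77 mitochondrial ribosomal protein genes, 11 were higher and 3 lower in that comparison, a smaller share than the 24.7% called over all genes, and their median was 0.03. In replicates 1, 2 and 3 of control, their median deviation from the mean of all libraries was 0.13, -0.05 and -0.19 on the log2 scale, and that of the cytosolic members -0.15, 0.03 and -0.13.

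Of 39 tested ribosome assembly factors, 7 were higher and 5 lower in the comparison of pairs, with a median of 0.02, and in NC against gag 1 was higher and 8 were lower. Over all genes, 13.1% were higher and 11.6% lower in the comparison of pairs, 24.7% together. In NC against gag 8.76% of all genes were higher and 8.12% lower, 16.9% together, so the calls of assembly factors leaned to lower there. *GNL3*, which encodes nucleostemin, rose by 0.27 and *RRN3*, a factor of RNA polymerase I, fell by 0.24 in the comparison of pairs. Of 20 S6 kinases and regulators of 5′TOP mRNAs, 3 rose and 0 fell in it, where 13.1% of all genes rose and 11.6% fell. The 3 were the kinase *RPS6KA2* with 0.59, *EIF4EBP1*, the translation repressor 4E-BP1, with 0.50 and *LARP1* with 0.22 (adjusted p = 0.0044). Of 12 p53 targets, 2 rose and 2 fell, next to 13.1 and 11.6% of all genes. Of 25 tested genes with pseudogene symbols, 1 rose and 2 fell, of which *RPS19BP1* is a coding gene that the symbol rule also took. Of the HEK293 markers, *NEFL* and *VIM* rose in the same comparison, by 0.69 and 0.32. Of the 8 markers of other cell types, 2 were tested, and *ALB*, the liver marker, with 6 to 50 counts per library, was lower in it (-1.63, adjusted p = 0.00273) and in gag-pol against control (-2.09, adjusted p = 0.0127). The part of such differences between cultures in the ribosomal protein changes was not tested.

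Members were also set apart by the pyrimidine run at the start, with no test. This split turns on the exact listed base. Among others counted as without a run, *RPL19*, *RPS7* and *RPL3* have a listed start inside a longer stretch of C and T. The listed start of *RPS28* lies directly before such a stretch. With NC against control the median was 0.25 over the 47 members with a run, 0.21 over the 19 tested members with a listed start and none, and 0.22 over the 17 with no listed start. In the comparison of pairs these medians were 0.21, 0.18 and 0.21, and 34 of 47, 9 of 19 and 12 of 17 members were called, where 24.7% of all genes were. *RPS4X* and *RPL3*, without a run at the listed start, rose by 0.35 and 0.29, and *RPS25* and *RPS3*, which have one, by 0.34 and 0.31.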

How the data were processed

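Poly(A) RNA of 12 libraries was sequenced as paired-end reads. Per the labels and the study's methods, the authors mapped reads to GRCh38.p13 with STAR 2.7.3, sorted them with SAMtools 1.8 and counted them per gene with featureCounts, without release, strand or multimapping settings given in the sources used here. The deposited values are raw read counts, 1 column per library. Libraries were grouped by construct. Members and gene lists were chosen with earlier results of these data known. The comparison of NC with gag-pol, pairs of replicate numbers, coding lengths and library orders were added after seeing the data.

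Counts were fitted in edgeR 4.0.16 (R 4.3.3) with TMM factors, the filter on low counts (minimum 10, total 15) and robust quasi-likelihood estimation, in 1 model of construct and replicate number. The study's model used harvest date, which was not given per library, and the replicate number was used in its place. After construct means were removed, the 18 pairs of libraries with the same number had correlations of 0.138 to 0.539 over all genes tested. The 36 others had -0.498 to 0.0720, so the number was kept as a block. Over the members alone these ranges were -0.302 to 0.938 and -0.888 to 0.532, and they overlapped. P-values were adjusted by Benjamini-Hochberg across 17176 genes, with a threshold of 0.05, and SE belongs to the log2 fold change. Named genes were, per comparison, the 5 largest rises and falls among called members, the 5 highest per length, paralogs, partners and genes of known role, and the 3 most different between replicates. Some results for single genes that this rule takes are not reported here. Alternatives were DESeq2 1.42.0, other scaling, filters, fits and depths, a GC and length correction, and left-out libraries. The test was checked on simulated counts. At totals of at least 30625725 counts, precision is set by 3 libraries a group.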

Additional observations from a re-analysis of the deposited data

How the results depend on the processing

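The direction of the family was steadier than the number of calls. The median log2 fold change of the members stayed positive under all alternatives for gag-pol (0.02 to 0.19) and NC (0.15 to 0.31) against control, gag-pol (0.10 to 0.25) and NC (0.15 to 0.40) against gag, and in the comparison of pairs (0.16 to 0.26). For gag against control it ran from -0.15 to 0.04. Without the replicate block, 0 members were called in each of these comparisons, and at most 0.0116% of all genes, so every call here depends on the pairing of libraries by replicate number.

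Members called for NC against control numbered 38 with DESeq2, 42 with no filter and 51 when only the 6 libraries compared were fitted. There 16, 10.1 and 12.8% of all genes were called, next to 11.2% with the settings used above. For gag-pol against control they numbered 5 with no filter, 0 with the 6 libraries and 7 after removal of a GC and length trend. There 9.83, 6.84 and 12.9% of all genes were called, next to 11.3% with the settings used above. For gag-pol against gag they numbered 7 with DESeq2, 8 with no filter and 5 with ribosomal protein genes left out of the scaling. There 10.2, 6.68 and 6.6% of all genes were called, next to 6.46% with the settings used above. In the same comparison 48 members were called with the 6 libraries, where 15.9% of all genes were. After the GC and length trend 12 were called, where 8.06% of all genes were. For NC against gag the 6 libraries gave 19, where 12.9% of all genes were called, next to 16.9% with the settings used above. For NC against gag-pol no filter gave 1, where 0.562% of all genes were called, next to 0.0873%. The cause of these changes in the number of calls was not tested. The comparison of pairs uses all libraries, so it has no fit of 6 libraries. Other scaling factors, *PEG10* left out, at least 10 counts in every library and thinning kept each count within 1.5 times.

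Calls were also counted with a library or replicate number left out. Against control they ranged from 0 to 5 for gag-pol, 0 to 8 for gag and 0 to 43 for NC. Against gag they ranged from 0 to 11 for gag-pol and 0 to 75 for NC. For NC against gag-pol they ranged from 0 to 20. In the comparison of pairs they ranged from 14 to 67, with 67 without replicate 3 of gag, where 20.1% of all genes were called. Between replicate numbers they ranged from 2 to 67, with 67 without all of replicate 3, where 36.1% of all genes were called. The difference in summed share ranged from -0.101 to 0.578 points for gag-pol, from -0.665 to -0.0738 for gag and from 0.581 to 1.29 for NC, and with the replicate block its exact sign-flip p was 1, against 0.5 for gag and 0.25, the smallest possible, for NC. Of 44 called values of named genes, all kept their direction when a library or number was left out, and 215 of the 660 values so obtained were no longer called. Genes near 0 changed sign: in the comparison of pairs *RPL7L1* ranged from -0.047 to 0.063, *RPL26L1* from -0.10 to 0.15, *RPL36A* from -0.054 to 0.15 and *RPS10* from -0.11 to 0.039, and *RPL22L1* for NC against control from -0.22 to 0.11.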
